A study of Rattus norvegicus with 14 samples.

Results

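The 9 heat shock chaperone genes Hspa5, Hspa8, Hsp90aa1, Hsp90ab1, Hsp90b1, Hspb1, Hsph1, Dnajb1 and Bag3 were chosen by symbol, and each had 1 row among the 22601 genes listed for every sample. Their transcripts were measured by RNA sequencing in the hippocampus of wild-type Wistar rats weighing 180 to 220 g. The groups were rats of a seizure model made with pentylenetetrazole (PTZ) that received Q808 (PTZ+Q808, n = 5), rats of the same model that received vehicle (PTZ, n = 5), and vehicle control rats (control, n = 4). PTZ is a convulsant that blocks GABA-A receptors, and Q808 is given only as a code name. The sources used here state neither dose, sampling time, age nor sex, nor which agent was injected first. No source beyond the group sizes says which animal each replicate came from, so p-values measure the spread between these samples.

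Levels are FPKM, the number of fragments on a transcript scaled by its length and by the library total, so they can be compared between genes. The FPKM values of single genes fell on whole multiples of what 1 read is worth in a library, and 15332292 to 18543933 reads per library were recovered in this way. For the 9 genes this gave between 56 reads (the lowest library of Hspb1) and 43642 reads (the highest library of Hsp90ab1). Marker transcripts of neighbouring tissue stood apart in single libraries, with summed striatal markers at 599 FPKM in control replicate 2 (64.0 to 87.4 FPKM over the other 13 libraries) and summed pituitary markers at 687 FPKM in PTZ+Q808 replicate 3. Choroid plexus markers summed to 400 FPKM in PTZ+Q808 replicate 1, 183 FPKM in PTZ replicate 2 and 105 FPKM in control replicate 3, and to 1420 to 7751 FPKM elsewhere. The markers of hippocampal neurons summed to 243 to 353 FPKM in PTZ+Q808, 283 to 352 FPKM in PTZ and 272 to 334 FPKM in control libraries. Y-linked transcripts were present in 8 libraries (3 of 5 PTZ+Q808, 3 of 5 PTZ and 2 of 4 control) and not at 1 FPKM or more in the other 6.

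Heat shock proteins are molecular chaperones that bind unfolded proteins, help them fold and keep them from aggregating. HSP70 proteins take up a client with the help of J-domain proteins and release it through nucleotide exchange factors, and HSP90 proteins act later, on kinases, receptors and other clients that are nearly folded. The cytosolic stress-inducible genes are driven by heat shock factor HSF1, which binds repeated nGAAn units (heat shock elements), while the endoplasmic reticulum (ER) chaperones Hspa5 and Hsp90b1 are classic targets of the unfolded protein response. Several of these genes, such as Hspa8 and Hsp90ab1, are also expressed at a high level in unstressed neurons.

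Promoter windows were searched for the exact letters of stress pathway elements, so that variant or more distant elements were not seen. Windows of 250 bases before to 50 bases after the annotated start (RefSeq, build GRCr8) were found for 8 of the 9 genes, all but Hsp90aa1, and are printed in the direction of transcription, with positions counted back from the start. The ER stress response element, CCAAT and CCACG with 9 bases of any kind between them, searched on both strands, was in the windows of Hspa5 and Hsp90b1 alone among the 8, and in 0.0657% of 33469 rat promoter windows. It begins with CCAAT, which taken alone was in 7 of the 8 windows and in 37.5% of all. The windows of these ER genes are shown because they carry it, in capitals, once in Hspa5 (from -43 to -25) and on both strands in Hsp90b1 (from -176 to -158 and from -72 to -54).
Hspa5 (chr3:38452766-38453065, plus strand): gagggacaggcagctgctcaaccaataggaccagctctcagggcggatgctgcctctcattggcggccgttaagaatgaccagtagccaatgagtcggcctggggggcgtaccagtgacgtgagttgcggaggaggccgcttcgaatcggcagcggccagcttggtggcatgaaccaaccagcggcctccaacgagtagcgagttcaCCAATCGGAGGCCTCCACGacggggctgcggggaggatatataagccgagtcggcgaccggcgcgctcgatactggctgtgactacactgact
Hsp90b1 (chr7:23012244-23012543, minus strand): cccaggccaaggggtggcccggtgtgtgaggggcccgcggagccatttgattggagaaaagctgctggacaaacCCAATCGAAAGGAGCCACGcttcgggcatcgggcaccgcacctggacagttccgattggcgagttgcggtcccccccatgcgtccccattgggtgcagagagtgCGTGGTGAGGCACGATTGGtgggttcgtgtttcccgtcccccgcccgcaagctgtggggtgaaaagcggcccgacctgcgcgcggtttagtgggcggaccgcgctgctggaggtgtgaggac

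The heat shock element core, GAANNTTC or TTCNNGAA, which reads alike on both strands, was in 5 of the 8 windows (Hspa8, Hspb1, Hsph1, Dnajb1 and Bag3) and in 15.9% of all windows. Its 3-unit form, in which 2 cores share their middle unit (GAA or TTC), was in Hspa8 and Hsph1 and in 0.798% of all windows. Those windows are shown whole, with cores and 3-unit elements in capitals. For the genes with cores but no 3-unit element, only the stretch around the cores is shown. Dnajb1 has a core after the annotated start (from 17 to 24).
Hspa8 (chr8:50080264-50080563, plus strand): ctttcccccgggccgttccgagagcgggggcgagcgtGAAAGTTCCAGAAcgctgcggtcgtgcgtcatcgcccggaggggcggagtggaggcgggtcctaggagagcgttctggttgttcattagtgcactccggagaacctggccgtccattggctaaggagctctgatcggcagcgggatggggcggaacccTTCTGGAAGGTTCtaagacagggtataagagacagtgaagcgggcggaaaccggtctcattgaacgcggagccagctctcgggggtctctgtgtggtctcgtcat
Hsph1 (chr12:10427118-10427417, plus strand): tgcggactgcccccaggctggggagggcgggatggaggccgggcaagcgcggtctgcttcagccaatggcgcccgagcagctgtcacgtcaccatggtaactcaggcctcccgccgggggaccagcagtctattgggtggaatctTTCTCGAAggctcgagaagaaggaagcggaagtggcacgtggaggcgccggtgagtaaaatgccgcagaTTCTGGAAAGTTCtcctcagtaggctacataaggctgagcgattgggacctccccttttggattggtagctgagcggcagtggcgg
Hspb1 (chr12:26432393-26432440, minus strand): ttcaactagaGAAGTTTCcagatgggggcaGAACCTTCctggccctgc
Dnajb1 (chr19:41431107-41431162, minus strand): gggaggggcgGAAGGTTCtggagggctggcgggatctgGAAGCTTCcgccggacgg
Bag3 (chr1:192533318-192533345, plus strand): gatgggaccaGAAGTTTCtagccggcca

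The window of Hsp90ab1 held neither element. It held the cyclic AMP response element TGACGTCA, the letters bound by CREB in activity-dependent genes, which was in 1.83% of all windows and in no other window of the 8. It is shown in capitals because Hsp90ab1 had the highest level of the 9 genes. Bag3 also held, on the opposite strand, the XBP1/ATF6-type letters TGACGTGG or TGACGTGT (from -36 to -29), which were in 0.992% of all windows.
Hsp90ab1 (chr9:22930233-22930260, plus strand): tctgcgagcaTGACGTCAaggtgggcgg

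The 9 transcripts spanned a wide range of levels, with Hsp90ab1 and Hspa8 at the top of every group. Hsp90ab1, the constitutive cytosolic HSP90, was highest at a mean of 1010 FPKM over the 14 libraries (935 to 1131 FPKM). Hspa8, the constitutive cytosolic HSP70 (HSC70), followed at 585 FPKM (505 to 719 FPKM), and its range did not overlap that of any neighbour. Hspa5 (167 FPKM), Hsp90b1 (155 FPKM) and Hsph1 (123 FPKM) came next, and the ranges of these 3 overlapped. Dnajb1 (24.0 FPKM) and Hsp90aa1 (19.9 FPKM) overlapped each other, as did Bag3 (8.24 FPKM) and Hspb1 (7.54 FPKM) at the bottom. The range of Hspb1 (3.69 to 15.1 FPKM) also overlapped that of Hsp90aa1 (12.3 to 31.6 FPKM). The highest library was 1.21 times the lowest for Hsp90ab1 and 4.09 times the lowest for Hspb1, the least and the most variable of the 9.

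**Figure D1:**
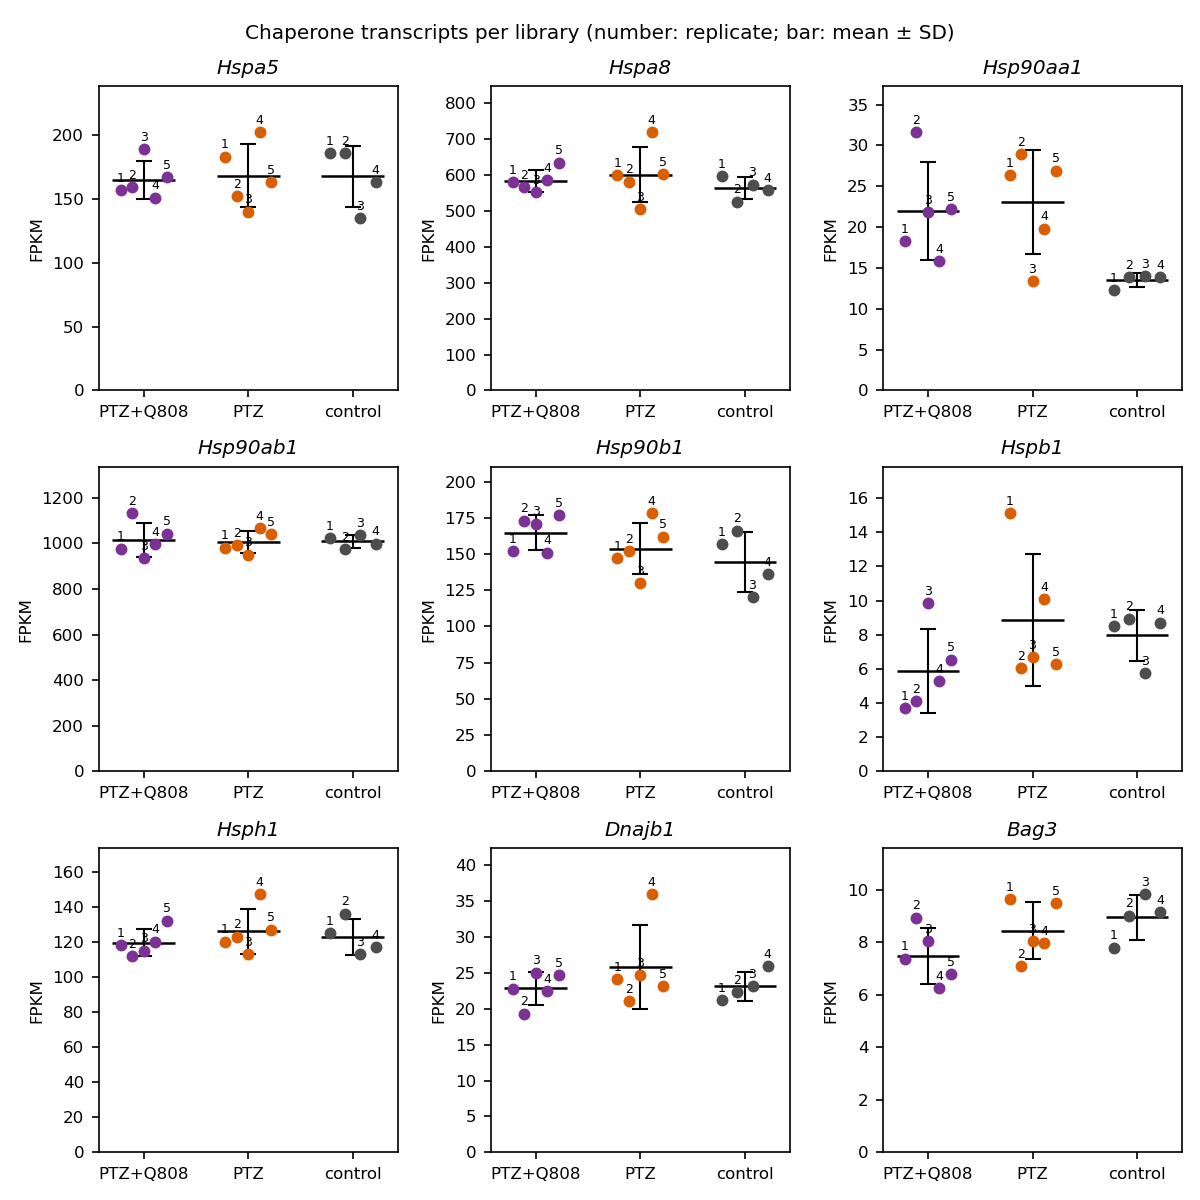
FPKM of each of the 9 chaperone genes (y axis, starting at 0) in every library of PTZ+Q808, PTZ and control rats (x axis), with the replicate number above each point and bars for the mean ± SD. Hsp90aa1 is the gene whose PTZ+Q808 libraries (15.8 to 31.6 FPKM) all lie above the control libraries (12.3 to 13.98 FPKM), and the other 8 genes overlap between all groups.

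Chaperone transcripts did not pass the test in any of the 3 comparisons. Values were compared as log2(FPKM + 1) in limma over the 12744 genes with at least 1 FPKM in at least 4 samples, which all 9 genes met, with p adjusted over those genes by Benjamini-Hochberg and a threshold of 0.05 for a call. In PTZ against control, 0 of 9 were called, where 0.0314% of all tested genes were, and 1 of 9 (Hsp90aa1) had an unadjusted p under 0.05, where 8.11% of all genes did. In PTZ+Q808 against PTZ, 0 of 9 were called, where 0.0% of all genes were, and 0 of 9 had an unadjusted p under 0.05, where 6.14% did. In PTZ+Q808 against control, 0 of 9 were called, where 2.87% of all genes were, and 2 of 9 (Hsp90aa1 and Bag3) had an unadjusted p under 0.05, where 20.7% did. limma-voom on the recovered reads also called 0 of 9 in each comparison. Groups without overlap between their libraries were seen for 0 of 9 genes in PTZ against control (3.03% of all tested genes), 0 of 9 in PTZ+Q808 against PTZ (0.777%) and 1 of 9, Hsp90aa1, in PTZ+Q808 against control (8.91%). The median log2 change of the 9 genes was 0.07, -0.06 and -0.02 in that order of comparisons, and that of all tested genes was -0.01, -0.00 and -0.02. PTZ+Q808 against control shares its PTZ+Q808 libraries with PTZ+Q808 against PTZ and its control libraries with PTZ against control.

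**Figure D2:**
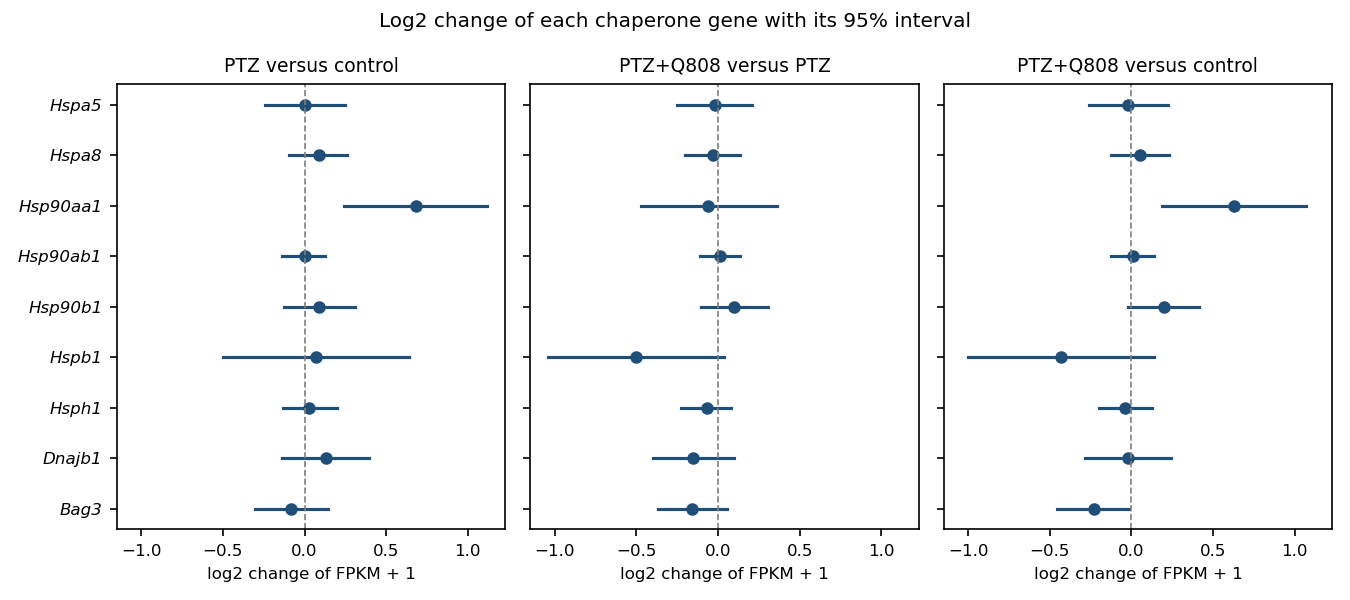
Log2 change of FPKM + 1 (x axis) of each chaperone gene (y axis) in the 3 comparisons, 1 panel each, with points for the limma estimate and lines for its 95% interval. Intervals are narrow for Hsp90ab1 (-0.12 to 0.14 in PTZ+Q808 versus control) and wide for Hspb1 (-1.0 to 0.14), and those of Hsp90aa1 lie above 0 in both comparisons with control.

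Among the HSP70 proteins and their partners, Hspa8, which folds and disassembles cytosolic proteins and uncoats clathrin vesicles at synapses, showed no difference beyond the spread between libraries. It was at 581, 566, 553, 586 and 635 FPKM in PTZ+Q808 libraries, 600, 582, 505, 719 and 602 FPKM in PTZ libraries, and 598, 526, 573 and 559 FPKM in control libraries. The lowest and the highest library were both in the PTZ group. Its log2 change was 0.09 ± 0.08 (SE) in PTZ against control (95% interval -0.09 to 0.26, limma adjusted p = 0.807). In PTZ+Q808 against PTZ the interval ran from -13.1% to 9.62% of FPKM + 1, and in PTZ+Q808 against control from -8.41% to 17.1%.

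Hspa5 (BiP), the HSP70 of the ER lumen and the sensor partner of the unfolded protein response, was at 157, 159, 189, 151 and 167 FPKM in PTZ+Q808 libraries, 183, 152, 140, 202 and 163 FPKM in PTZ libraries, and 186, 186, 135 and 163 FPKM in control libraries. Each group thus held libraries below 160 FPKM and above 180 FPKM, and the group means were 165 ± 14.6, 168 ± 24.6 and 168 ± 24.3 FPKM (SD, n = 5, 5 and 4). The log2 change was -0.02 ± 0.11 in PTZ+Q808 against control (limma adjusted p = 0.947), with an interval from -16.6% to 16.9%. In PTZ against control the interval ran from -15.3% to 18.8%. Within the libraries with Y-linked transcripts the log2 difference of PTZ+Q808 from control was -0.26, and within those without it was 0.26. With 2 or 3 libraries a cell this was not tested. Control replicate 3, the lowest library for Hspa5 and Hsp90b1, was also the lowest in choroid plexus markers, whose part in these levels was not tested.

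Hsph1 (HSP110) is a nucleotide exchange factor of HSP70 and takes part in protein disaggregation. It was at 118, 112, 115, 120 and 132 FPKM in PTZ+Q808 libraries, 120, 123, 113, 147 and 127 FPKM in PTZ libraries, and 125, 136, 113 and 117 FPKM in control libraries. The groups overlapped over nearly their whole ranges, with PTZ replicate 4 the highest. The interval of its difference ran from -14.5% to 5.89% in PTZ+Q808 against PTZ and from -8.59% to 14.7% in PTZ against control.

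Dnajb1 (HSP40), a J-domain protein that delivers clients to HSP70 and a textbook HSF1 target, was at 22.8, 19.3, 25.0, 22.4 and 24.7 FPKM in PTZ+Q808 libraries, 24.1, 21.0, 24.7, 35.9 and 23.1 FPKM in PTZ libraries, and 21.2, 22.3, 23.1 and 25.9 FPKM in control libraries. PTZ replicate 4 stood above all other libraries, which lay between 19.3 and 25.9 FPKM. The log2 change was -0.15 ± 0.12 in PTZ+Q808 against PTZ (limma adjusted p = 0.887) and 0.13 ± 0.12 in PTZ against control (adjusted p = 0.805). Without PTZ replicate 4 these values were -0.03 and 0.01.

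Bag3, which links HSP70 to small heat shock proteins and to selective autophagy, had a lower mean in PTZ+Q808 rats than in the other groups and did not pass the test. It was at 7.38, 8.94, 8.03, 6.24 and 6.79 FPKM in PTZ+Q808 libraries, 9.63, 7.09, 8.03, 7.97 and 9.48 FPKM in PTZ libraries, and 7.79, 9.01, 9.82 and 9.15 FPKM in control libraries. In 3 of 5 PTZ+Q808 libraries it was below every control library, and the other two lay inside the control range. Its log2 change was -0.23 ± 0.10 in PTZ+Q808 against control (95% interval -0.46 to -0.01, unadjusted p = 0.0398, limma adjusted p = 0.218). In PTZ against control it was -0.08 ± 0.10 (adjusted p = 0.866). These levels rest on 256 to 402 reads per library, a counting error of 4.99 to 6.25%. In whole tissue, fewer cells that express a gene and less RNA per cell cannot be told apart.

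Among the HSP90 proteins, Hsp90ab1 was the most even transcript of the 9. It was at 976, 1131, 935, 995 and 1042 FPKM in PTZ+Q808 libraries, 981, 991, 950, 1066 and 1041 FPKM in PTZ libraries, and 1024, 975, 1035 and 998 FPKM in control libraries. Both the highest and the lowest library were PTZ+Q808 libraries. The difference had an interval from -8.12% to 10.1% in PTZ+Q808 against control and from -8.94% to 9.14% in PTZ against control.

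Hsp90aa1, the stress-inducible cytosolic HSP90, was the gene with the largest difference among the 9. It was at 18.3, 31.6, 21.8, 15.8 and 22.2 FPKM in PTZ+Q808 libraries, 26.4, 28.9, 13.4, 19.8 and 26.9 FPKM in PTZ libraries, and 12.3, 13.9, 13.98 and 13.9 FPKM in control libraries. All 5 PTZ+Q808 libraries and 4 of 5 PTZ libraries were above every control library, and PTZ replicate 3 lay inside the control range. Among all tested genes, 4.75% had every PTZ+Q808 library above every control library. The log2 change was 0.63 ± 0.21 in PTZ+Q808 against control (95% interval 0.18 to 1.07, unadjusted p = 0.00869, limma adjusted p = 0.105) and 0.68 ± 0.21 in PTZ against control (0.24 to 1.12, unadjusted p = 0.00499, adjusted p = 0.431). Neither passed the test over all genes. Between PTZ+Q808 and PTZ the log2 change was -0.06 ± 0.19 (-0.47 to 0.36, adjusted p = 0.977), an interval that leaves room for a difference of either sign.

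The spread of Hsp90aa1 was unequal between groups, with an SD of 5.99 FPKM in PTZ+Q808 (mean 21.9, n = 5), 6.43 FPKM in PTZ (mean 23.1, n = 5) and 0.824 FPKM in control (mean 13.5, n = 4). The model gives all groups 1 variance. In the 8 libraries with Y-linked transcripts it was at 18.3, 31.6 and 15.8 FPKM in PTZ+Q808, 26.4, 28.9 and 26.9 FPKM in PTZ, and 12.3 and 13.9 FPKM in control. In the other 6 it was at 21.8 and 22.2 FPKM in PTZ+Q808, 13.4 and 19.8 FPKM in PTZ, and 13.98 and 13.9 FPKM in control. The log2 difference of PTZ from control was thus 1.01 within the libraries with Y-linked transcripts and 0.21 within those without, and that of PTZ+Q808 from control was 0.64 and 0.62. That of PTZ+Q808 from PTZ was -0.37 with Y-linked transcripts and 0.41 without. With 2 or 3 libraries a cell these differences were not tested, and with Y-linked transcripts as a term in the limma fit the log2 change was 0.61 in PTZ+Q808 against control (adjusted p = 0.0995) and 0.66 in PTZ against control (adjusted p = 0.366).

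The ratio of the constitutive to the inducible HSP90 transcript, Hsp90ab1 over Hsp90aa1, is free of the library total. It was 53.4, 35.8, 43.0, 62.9 and 46.9 in PTZ+Q808 libraries, 37.1, 34.2, 71.1, 53.9 and 38.7 in PTZ libraries, and 83.5, 70.1, 74.0 and 72.0 in control libraries. Every PTZ+Q808 library was below every control library, and PTZ replicate 3 again lay inside the control range. Since Hsp90ab1 hardly varied, this follows Hsp90aa1. The level of Hsp90aa1 depends on how the authors annotated and counted this gene, which the sources used here do not give, so the size of the ratio and the place of Hsp90aa1 among the 9 levels are uncertain.

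Hsp90b1 (GRP94), the HSP90 of the ER lumen, was at 152, 173, 171, 151 and 177 FPKM in PTZ+Q808 libraries, 147, 152, 130, 178 and 162 FPKM in PTZ libraries, and 157, 166, 120 and 136 FPKM in control libraries. Its group means stood in the order 165 ± 12.3, 154 ± 17.9 and 144 ± 20.8 FPKM, with overlapping libraries throughout. The log2 change was 0.20 ± 0.10 in PTZ+Q808 against control (95% interval -0.02 to 0.41, limma adjusted p = 0.29) and 0.10 ± 0.10 in PTZ+Q808 against PTZ (adjusted p = 0.917). Without the 3 libraries of low choroid plexus markers it was 0.14 in PTZ+Q808 against control and 0.01 in PTZ against control, against 0.09 with them. Within the libraries with Y-linked transcripts the log2 difference of PTZ+Q808 from control was -0.03, and within those without it was 0.45, with no test.

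Hspb1 (HSP27), a small heat shock protein that holds unfolded proteins without ATP and is known in brain from glia and vessels under stress, was the most variable of the 9. It was at 3.69, 4.10, 9.84, 5.29 and 6.54 FPKM in PTZ+Q808 libraries, 15.1, 6.06, 6.67, 10.1 and 6.28 FPKM in PTZ libraries, and 8.49, 8.95, 5.75 and 8.71 FPKM in control libraries. PTZ+Q808 replicates 1, 2 and 4 were below every other library, while PTZ+Q808 replicate 3 was the third highest of all. The log2 change was -0.50 ± 0.25 in PTZ+Q808 against PTZ (95% interval -1.04 to 0.04, limma adjusted p = 0.811, and -0.31 without PTZ replicate 1), -0.43 ± 0.27 in PTZ+Q808 against control (adjusted p = 0.384) and 0.07 ± 0.27 in PTZ against control (adjusted p = 0.966). The values rest on 56 to 239 reads per library, a counting error of 6.47 to 13.4%, which is smaller than the SD of any group.

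The lower Hspb1 values of PTZ+Q808 rats stood in the libraries with Y-linked transcripts. Within them the log2 difference of PTZ+Q808 from PTZ was -0.82 and that from control was -0.87, and within the libraries without them these were -0.03 and 0.16, with 2 or 3 libraries a cell and no test. PTZ replicate 1, the highest library for Hspb1, was also the highest in summed markers of meninges and fibroblasts (354 FPKM). PTZ+Q808 replicate 3, which was next in those markers (294 FPKM), had 9.84 FPKM of Hspb1, but PTZ+Q808 replicates 2 and 1 (230 and 229 FPKM of the markers) were the 2 lowest for Hspb1. All 10 of those markers were detected, and they summed to 96.6 to 294 FPKM in PTZ+Q808, 103 to 354 FPKM in PTZ and 80.2 to 165 FPKM in control libraries. Their part in the level of Hspb1 was not tested.

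Single libraries were high for several chaperones at once. PTZ replicate 4 was the highest of all 14 libraries for 5 of the 9 genes (Hspa5, Hspa8, Hsp90b1, Hsph1 and Dnajb1) and among the top 3 for 7. It was also the highest for Fos (175 FPKM) and Arc (235 FPKM), immediate early genes that neurons switch on with intense firing. Hsp90aa1 did not follow that order. PTZ+Q808 replicate 2 and PTZ replicates 2, 5 and 1, its highest libraries at 31.6, 28.9, 26.9 and 26.4 FPKM, had Fos at 38.2, 43.2, 38.8 and 62.8 FPKM. PTZ+Q808 replicates 5, 1 and 3 and PTZ replicates 4 and 3, with Fos at 142, 127, 126, 175 and 113 FPKM, had Hsp90aa1 at 22.2, 18.3, 21.8, 19.8 and 13.4 FPKM. PTZ+Q808 replicate 4 was low in both, at 27.0 FPKM of Fos and 15.8 FPKM of Hsp90aa1. No correlation is given here, since the control libraries form a cluster of their own at 11.2 to 23.4 FPKM of Fos.

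**Figure D3:**
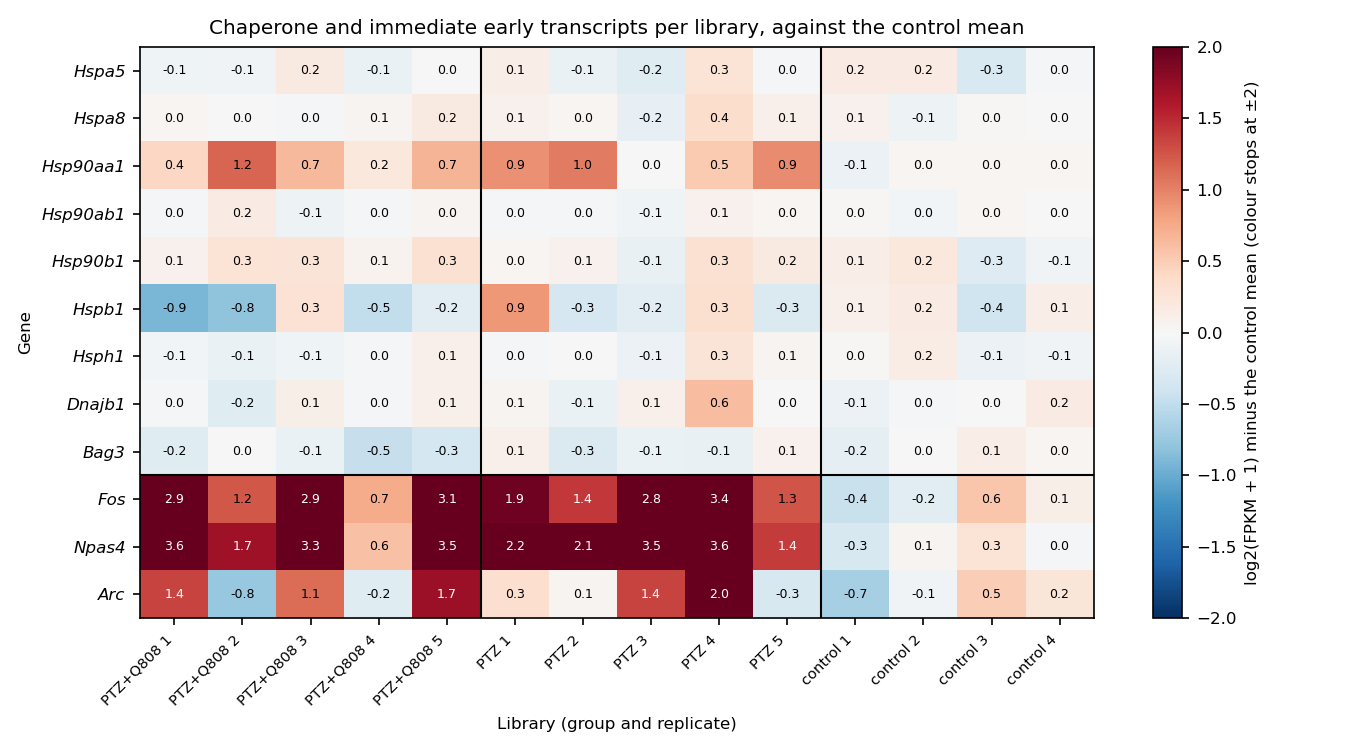
Log2(FPKM + 1) minus the control mean for the 9 chaperone genes and the immediate early genes Fos, Npas4 and Arc (rows) in each library (columns, PTZ+Q808, then PTZ, then control), with colours that stop at ±2 and each value written in its cell. Fos and Npas4 are above the control mean in all 10 libraries of PTZ+Q808 and PTZ rats, and most chaperone cells are near 0 apart from those of Hsp90aa1, Hspb1 and PTZ replicate 4.

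The 9 transcripts varied together only loosely. Over the 14 libraries, the 36 pairs had a median Pearson r of 0.26 (-0.316 to 0.71), 29 of them positive, and 0 of 36 passed a permutation test after Benjamini-Hochberg adjustment, by Pearson's r or by Spearman's rho. The ER partners Hspa5 and Hsp90b1 had the highest r, 0.71 (permutation p = 0.00436, adjusted p = 0.11), with rho = 0.697 (p = 0.00735, adjusted p = 0.132). Their r was 0.836 after group means were taken out and 0.498 without PTZ replicate 4 and control replicate 3, the 2 libraries farthest from the median of Hspa5. Hspa5 and Hspb1 had r = 0.669 (permutation p = 0.00878, adjusted p = 0.11), rho = 0.732 (p = 0.00407, adjusted p = 0.132) and r = 0.665 without the same 2 libraries. Hspa8 and Hsph1 had r = 0.658 (permutation p = 0.0122, adjusted p = 0.11) and rho = 0.635 (p = 0.017, adjusted p = 0.194). Their r was 0.17 without PTZ replicates 4 and 3. These were the 2 libraries farthest from the median of Hspa8, so that leaving them out also narrows its range. Hspa5 and Hsph1 had r = 0.649 (permutation p = 0.0117, adjusted p = 0.11), and 0.417 without PTZ replicate 4 and control replicate 3.

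**Figure D4:**
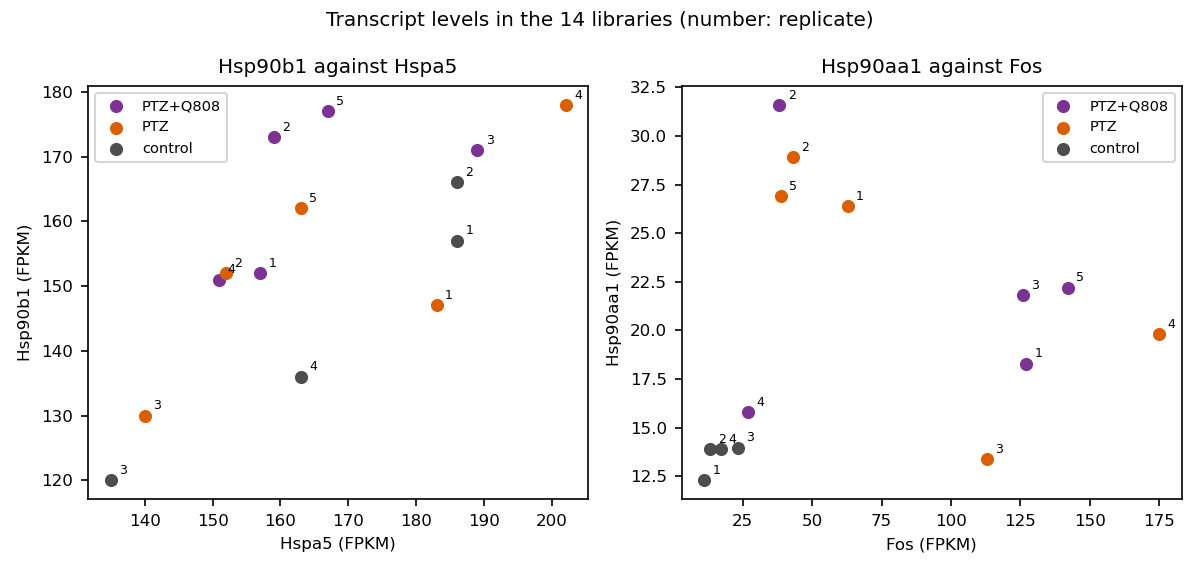
FPKM of Hsp90b1 against Hspa5 (left) and of Hsp90aa1 against Fos (right) in the 14 libraries, coloured by group and labelled with the replicate number. Hspa5 and Hsp90b1 are lowest together in control replicate 3 (135 and 120 FPKM) and highest together in PTZ replicate 4 (202 and 178 FPKM), and the highest Hsp90aa1 value (31.6 FPKM) stands at 38.2 FPKM of Fos.

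For each gene the 3 tested transcripts with the most similar pattern over the 14 libraries, by Pearson's r of log2(FPKM + 1), are given as a description, since each is the highest of 12744. Those of Hspa5 were Pdia6, an ER disulphide isomerase (r = 0.843), Calr, the ER lectin chaperone calreticulin (r = 0.829), and S100a13 (r = 0.796), and without PTZ replicate 4 and control replicate 3 these were 0.871, 0.863 and 0.844. Hsp90b1 was closest to Rap1b, Rpe and Psma3 (0.907, 0.902 and 0.899, and 0.813, 0.788 and 0.853 without the 2 libraries farthest from the median of that gene). Hsp90aa1 was closest to Tra2a, a splicing regulator (0.874), Cbwd1 (0.848) and Thoc2, a subunit of the mRNA export complex THO (0.846), and these were 0.815, 0.829 and 0.82 without its 2 farthest libraries. Hsp90ab1 was closest to Dtnbp1, Rab14 and Erh (0.928, 0.923 and 0.915, and 0.872, 0.899 and 0.788 without 2), and Hspb1 to Cryz, Ifit1 and Tax1bp3 (0.943, 0.889 and 0.881, and 0.888, 0.947 and 0.835 without 2). Bag3 was closest to Acy1, Zfand2a, a zinc finger gene that is itself induced by proteotoxic stress, and Tube1 (0.862, 0.86 and 0.859, and 0.781, 0.786 and 0.756 without 2). For Hspa8 (RGD1309748, Cntf and Nhp2l1), Hsph1 (Rbm15, Qdpr and Papola) and Dnajb1 (Ttpal, Phf13 and Rassf1) the highest r was 0.94, 0.86 and 0.908, and 0.779, 0.641 and 0.726 without the 2 libraries farthest from the median, of which PTZ replicate 4 was one in each. Rassf1 had r = 0.876 with Dnajb1 and 0.523 without those libraries.

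The wider chaperone system was likewise without a called gene. Of 134 further genes in 9 lists (HSP70 relatives, J-domain and BAG cochaperones, HSP90 cochaperones, small heat shock proteins, heat shock factors, mitochondrial chaperones, ER folding enzymes, regulators of the unfolded protein response, and the TRiC and prefoldin subunits), 122 were tested. In PTZ against control 0 of 122 were called in limma and 9 (7.38%) had an unadjusted p under 0.05, in PTZ+Q808 against PTZ 0 were called and 7 (5.74%) had one, and in PTZ+Q808 against control 0 were called and 27 (22.1%) had one, shares near the 8.11%, 6.14% and 20.7% of all genes. The smallest adjusted p was 0.526, 0.76 and 0.0553. In PTZ+Q808 against control the libraries did not overlap for 13 of the 122 genes, 11 higher (9.02%) and 2 lower (the unfolded protein response sensor gene Ern1 and Atf6b), 10.7% in either direction, where 4.75% of all tested genes were higher and 8.91% stood apart in either direction. In PTZ against control they did not overlap for 2 genes, both higher (1.64%, where 3.03% of all tested genes stood apart). In PTZ+Q808 against PTZ this held for 1 gene, which was lower (0.82%, where 0.777% of all did). The list of 10 immediate early genes, for contrast, had a median log2 change of 1.55, 0.09 and 1.63. Atf3, Dusp1, Fos and Npas4 were called higher in PTZ+Q808 than in control, calls that held in 10, 21, 14 and 15 of 28 alternative settings. In PTZ against control 0 of these 10 were called (smallest limma adjusted p = 0.215), although 7 had every PTZ library above every control library. The absence of calls in that comparison therefore does not by itself show an absence of change, for chaperone genes either. How large a change could be differs between the 9 genes. The 95% interval in PTZ against control ran from -8.94% to 9.14% for Hsp90ab1 and from -29.3% to 56.1% for Hspb1.

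The cochaperones that came nearest to the threshold work with the HSP70 and HSP90 proteins described above, and none passed it. Dnaja1, a farnesylated HSP40, was at 149, 150, 159, 135 and 177 FPKM in PTZ+Q808 libraries, 113, 129, 102, 180 and 150 FPKM in PTZ libraries, and 108, 119, 109 and 107 FPKM in control libraries. Dnajb4, a close relative of Dnajb1, was at 30.0, 23.1, 33.8, 21.1 and 32.6 FPKM in PTZ+Q808 libraries, 19.6, 20.7, 19.96, 31.7 and 21.7 FPKM in PTZ libraries, and 16.6, 18.4, 18.7 and 19.5 FPKM in control libraries. Ppid (cyclophilin 40), an HSP90 cochaperone, was at 42.7, 49.9, 41.6, 35.9 and 51.8 FPKM in PTZ+Q808 libraries, 32.3, 38.4, 29.5, 42.5 and 48.8 FPKM in PTZ libraries, and 32.3, 33.1, 28.02 and 30.3 FPKM in control libraries. These 3 are among the 11 genes whose PTZ+Q808 libraries were all above the control libraries, with log2 changes of 0.47 ± 0.13, 0.57 ± 0.15 and 0.50 ± 0.13 and limma adjusted p of 0.0676, 0.0556 and 0.0603. Over the 28 alternative settings they were called in 5, 6 and 5. Dnajb4 was also above every control library in all 5 PTZ libraries, though narrowly (lowest PTZ 19.6 FPKM, highest control 19.5 FPKM). Its log2 change in PTZ against control was 0.28 ± 0.15 (limma adjusted p = 0.666). In PTZ+Q808 against control, Hspa4l, an HSP110 relative of Hsph1, had a log2 change of 0.31 ± 0.08 (adjusted p = 0.0553, called in 6 of 28 settings). Cct8, a subunit of the TRiC chaperonin, had 0.29 ± 0.08 (adjusted p = 0.0752, called in 2).

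**Figure D5:**
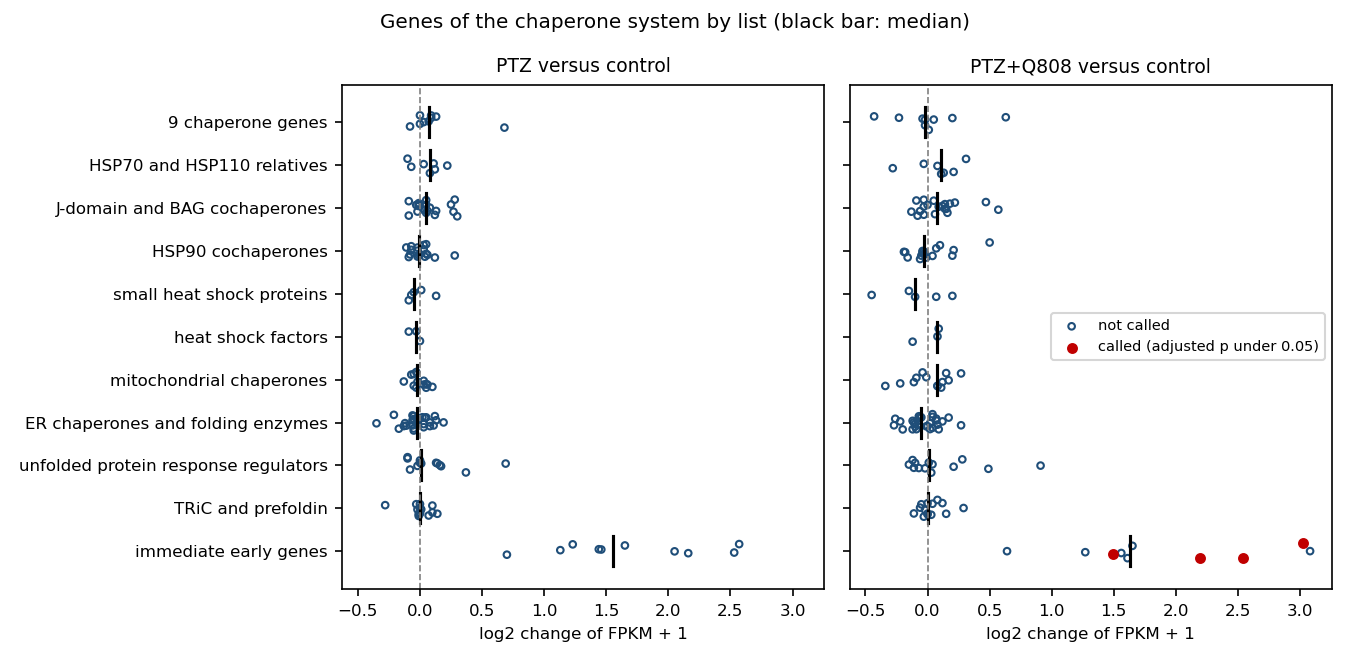
Log2 change of FPKM + 1 (x axis) of each tested gene in the lists of the chaperone system and in the immediate early list (y axis), for PTZ versus control and PTZ+Q808 versus control, with a black bar for each list's median and filled red points for called genes. The chaperone lists centre near 0 in both panels. The immediate early genes lie to the right, with 4 called in PTZ+Q808 versus control and 0 in PTZ versus control.

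Other genes of the same lists are given with their log2 change in PTZ+Q808 against control, none of which passed. The stress phosphatase subunit Ppp1r15a (GADD34), which ends the translational arm of the unfolded protein response, had 0.91 ± 0.28 (limma adjusted p = 0.0902), and the protease gene Mbtps2, which cleaves ATF6, had 0.28 ± 0.09 (adjusted p = 0.0959). The ER genes Sec63 and Creld2 had 0.17 ± 0.05 and -0.26 ± 0.08 (adjusted p = 0.0666 and 0.0839). Cryab (alpha B-crystallin), a small heat shock protein of glia, had -0.45 ± 0.19 (adjusted p = 0.2). Hspb11, put in the same list by its symbol, had 0.20 ± 0.11 (adjusted p = 0.324). Summed oligodendrocyte markers ran from 2723 to 5219 FPKM in PTZ+Q808, 3888 to 5817 FPKM in PTZ and 3739 to 7391 FPKM in control libraries, with all 8 markers detected, and their part in the value of Cryab was not tested. Hsf1 itself had -0.12 ± 0.06 (adjusted p = 0.332), and Hsbp1, which binds heat shock factors, had 0.09 ± 0.06 (adjusted p = 0.45). The mitochondrial cochaperones Hscb and Grpel2 had 0.27 ± 0.08 and -0.22 ± 0.08 (adjusted p = 0.0845 and 0.132), and Hspa13, Ttc4 and Cct6a had 0.21, -0.19 and 0.12 (adjusted p = 0.189, 0.141 and 0.294).

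The strongly heat-inducible HSP70 gene, Hspa1a, was too low to be tested. It was at 0.663, 0.580, 0.749, 0.711 and 0.744 FPKM in PTZ+Q808 libraries, 0.658, 0.915, 0.743, 2.17 and 0.875 FPKM in PTZ libraries, and 1.02, 0.710, 0.528 and 1.26 FPKM in control libraries, so that PTZ replicate 4 was again the highest. Several of these genes have near-identical copies, between which the authors' counting could have split reads. The row for a second HSP70 1A gene was at most 0.0829 FPKM, that for a second HSP 90-alpha gene at most 0.105 FPKM and that for a gene similar to HSP90 beta at most 0.0243 FPKM. A gene similar to Hspa8 was at 14.9 to 18.4 FPKM in PTZ+Q808, 17.7 to 23.1 FPKM in PTZ and 16.9 to 19.4 FPKM in control libraries, against 505 to 719 FPKM for Hspa8 itself.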

How the data were processed

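Total RNA from hippocampus was made into mRNA libraries and read on a BGI T7 sequencer, per the labels' protocols. The authors deposited FPKM, 1 value per gene in each sample. The submitters' processing notes name HISAT2, Bowtie2 and SAMtools, Cufflinks and StringTie, HTSeq, DESeq and Trimmomatic, with no role for any of them. The genome build is not given in the sources used here. Whole reads were recovered from the steps between FPKM values (all 12744 tested genes gave whole numbers within 0.05 read), and counting errors from them cover counting error only.

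The 12744 genes with at least 1 FPKM in at least 4 of 14 samples were fitted as log2(FPKM + 1), 3 groups together, with limma 3.58.1 (under R 4.3.3) and a mean-dependent prior variance with 11 residual degrees of freedom. Tests were two-sided, and p was adjusted by Benjamini-Hochberg over all tested genes. The pseudocount of 1 shrinks changes of low genes. Percent intervals refer to FPKM + 1. The script was tested on simulated data. Correlations were tested with 100000 permutations, in Python 3.11.15 (numpy 2.4.6, pandas 2.3.3), and figures were drawn with matplotlib 3.10.9. RefSeq gene identifiers matched 20633 of 22601 genes and were used for names only.

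The 9 genes, the lists and the motifs were chosen with earlier results of these data known. All 9 genes are named in every comparison. From each list the called genes are named, or the 2 of smallest p in PTZ+Q808 versus control where none was called. Hspa1a, Ern1, Atf6b and the near-identical copies are given in addition, chosen after their values were seen. The 3-unit heat shock element and limma-voom on the recovered reads were later additions, made with the data in view.

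Alternatives were a pseudocount of 0.1, no filter, a minimum of 5 FPKM, median-of-ratios, equal-total and quantile scaling, a fit of only the groups compared, library weights, the replicate number as a block, a robust prior, Y-linked transcripts or log2 Ttr as a term, leaving out the 3 libraries of lowest Ttr (a choroid plexus transcript), and leaving out each library.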

Additional observations from a re-analysis of the deposited data

Results flagged for a closer look

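Of 27 sets of values (9 genes in 3 groups), 3 held a library far from the others of its group, where chance flags about 1 in 20 sets. Dnajb1 was at 35.9 FPKM in PTZ replicate 4, against 21.0 to 24.7 FPKM in the other PTZ libraries. Hspb1 was at 5.75 FPKM in control replicate 3, against 8.49 to 8.95 FPKM in the other control libraries. Hsp90aa1 was at 12.3 FPKM in control replicate 1, against 13.9 to 13.98 FPKM in the other control libraries, a gap that stands out because those libraries lay so close together.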

How the results depend on the processing

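None of the 9 genes was called in any of 3 comparisons under any of 28 alternatives (limma throughout). The nearest was Hsp90aa1 in PTZ+Q808 versus control without PTZ replicate 3 (adjusted p = 0.0528), where the alternatives gave a log2 change of 0.49 to 0.73 and an adjusted p of 0.0528 to 0.23. In PTZ versus control they gave 0.59 to 0.86 (adjusted p 0.227 to 0.812).

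The number of called genes among all tested moved more. In PTZ versus control 4 genes were called, against 1 with no filter, 0 with only the 2 groups compared, 7 with library weights, 0 with the replicate block, 8 with Y-linked transcripts as a term, 2 with log2 Ttr as a term, 1 with limma-voom and 1 to 5 when single libraries were left out. In PTZ+Q808 versus PTZ 0 were called (782 with an unadjusted p under 0.05), against 2 with no filter and 0 without any single library. In PTZ+Q808 versus control 366 were called, against 190 with no filter, 199 with only the 2 groups compared, 1100 with library weights, 4 with the replicate block, 564 with Y-linked transcripts as a term, 0 without the 3 libraries of lowest Ttr, and 17 to 673 when single libraries were left out. The lowest of these was without control replicate 1 and the highest without PTZ+Q808 replicate 4, and the count was 40, 54, 32, 72 and 38 without control replicates 3 and 4 and PTZ+Q808 replicates 1, 3 and 5. The causes were not tested. Replicate numbers were not treated as pairs, since the labels do not say how they pair animals. Same-numbered libraries of different groups correlated at -0.28 to 0.143 over 13 pairs (median -0.001), with 2 over 0.1. Differently numbered ones correlated at -0.447 to 0.385 over 52 pairs (median -0.012), with 18 over 0.1.

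Of 756 values of the 9 genes under alternatives, 50 turned sign, none larger than 0.13 on the log2 scale and none called. In PTZ versus control, Hspa5 was -0.03 with library weights, -0.01 with log2 Ttr and -0.06 without the libraries of lowest Ttr. Hsp90ab1 was 0.01 with median-of-ratios scaling, 0.01 with equal totals, 0.002 with quantile normalization and 0.01 without the libraries of lowest Ttr. Hspb1 was -0.02 with library weights and Bag3 was 0.02 without the libraries of lowest Ttr. In PTZ+Q808 versus PTZ, Hspa5 was 0.0025 with library weights, Hsp90aa1 was 0.09 without the libraries of lowest Ttr, and Hsp90ab1 was -0.01 with equal totals, -0.03 with quantile normalization and -0.01 with library weights. In PTZ+Q808 versus control, Hsp90ab1 was -0.03 with quantile normalization, -0.02 with library weights and -0.0027 with the replicate block, and Dnajb1 was 0.0039 with Y-linked transcripts as a term. Leaving out single libraries, the values ran as follows. In PTZ versus control they were -0.09 to 0.07 for Hspa5, -0.03 to 0.02 for Hsp90ab1, -0.13 to 0.17 for Hspb1 and -0.02 to 0.08 for Hsph1. In PTZ+Q808 versus PTZ they were -0.09 to 0.05 for Hspa5, -0.10 to 0.03 for Hspa8, -0.23 to 0.05 for Hsp90aa1 and -0.03 to 0.04 for Hsp90ab1. In PTZ+Q808 versus control they were -0.12 to 0.04 for Hspa5, -0.03 to 0.04 for Hsp90ab1, -0.08 to 0.01 for Hsph1 and -0.06 to 0.04 for Dnajb1.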
